A study of Mus musculus with 4 samples.

Results

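The High_Apoe macrophages are the cells that the authors' deposited annotation places in a cluster of that name, and no other criterion was used to choose them. They numbered 3267 of the 27366 annotated cells, which fell into 9 clusters over 4 single-cell RNA libraries. All cells were bone marrow-derived macrophages (BMDMs), which are marrow cells grown into macrophages in culture, here from mice aged 8 to 12 weeks and in recombinant M-CSF at 50 ng/mL. The 4 libraries, each the only one of its group, were macrophages labelled Trpv4-null with lipopolysaccharide (LPS, a bacterial cell wall component) at 100 ng/mL for 24 hours, labelled Trpv4-null untreated, C57BL/6J wild type (WT) with the same LPS, and WT untreated. The labels do not give the Trpv4 allele. The title names a crosstalk of TRPV4, a mechanosensitive calcium channel, with NF-κB, the transcription factor through which LPS drives inflammatory genes. The design text counts 3 mice of each genotype with and without LPS, 12 samples in all, but nothing ties a cell to a mouse. Each group was therefore 1 library with no replicate, no test of a difference was made, and every interval given is for counting error only.

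Apolipoprotein E, the product of Apoe, is a secreted lipid carrier. Macrophages use it to pass cholesterol to lipoprotein particles, and its gene is a known target of LXR, a nuclear receptor that senses oxidized cholesterol and pairs with RXR. C1q, built from the products of C1qa, C1qb and C1qc, starts the classical complement pathway and tags dying cells for uptake. Lysozyme 2, from Lyz2, digests bacterial walls and is a general macrophage product. LPS binds TLR4 and starts NF-κB and interferon programmes, during which genes of tissue-resident and lipid-exporting macrophages are known to be lowered.

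The promoters of the genes with the highest ratio in High_Apoe cells over other cells are shown here because Apoe names the cluster and the other genes come next to it by that ratio. Of 4 such genes, Apoe, Fabp5, Mgst1 and Ddhd1, 3 were matched in the RefSeq promoter table, Apoe, Mgst1 and Ddhd1. Each sequence runs 5′ to 3′ on the gene's strand, from 250 bases before to 50 bases after the start, in build GRCm38.p6. Capitals mark matches on either strand to GAGGAA (the PU.1 core; PU.1 is the main macrophage lineage factor), AGGTCA (a nuclear receptor element) or TGCTGA (a Maf recognition core).
Apoe: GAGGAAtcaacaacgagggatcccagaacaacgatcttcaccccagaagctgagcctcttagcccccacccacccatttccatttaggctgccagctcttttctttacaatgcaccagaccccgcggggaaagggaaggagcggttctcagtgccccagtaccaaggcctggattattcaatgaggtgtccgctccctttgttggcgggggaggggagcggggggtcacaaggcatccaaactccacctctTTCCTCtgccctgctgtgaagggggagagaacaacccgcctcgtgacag
Mgst1: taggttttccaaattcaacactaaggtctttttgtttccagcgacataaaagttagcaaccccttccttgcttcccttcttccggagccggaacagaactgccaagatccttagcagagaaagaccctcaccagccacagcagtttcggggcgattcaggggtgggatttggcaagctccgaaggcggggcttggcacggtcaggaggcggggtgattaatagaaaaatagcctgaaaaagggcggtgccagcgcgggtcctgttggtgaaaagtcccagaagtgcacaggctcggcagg
Ddhd1: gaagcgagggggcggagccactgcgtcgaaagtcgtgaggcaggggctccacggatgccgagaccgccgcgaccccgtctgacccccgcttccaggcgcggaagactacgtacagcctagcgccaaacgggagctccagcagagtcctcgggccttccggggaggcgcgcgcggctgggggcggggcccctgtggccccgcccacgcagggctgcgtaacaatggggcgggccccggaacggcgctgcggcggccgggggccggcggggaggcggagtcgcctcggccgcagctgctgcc
The Apoe window, at chr7:19699139-19699438 on the minus strand, held 2 matches to GAGGAA, 1 beginning 250 bases before the start and 1 beginning at position 2 after it on the opposite strand. The Mgst1 window, at chr6:138140277-138140576 on the plus strand, and the Ddhd1 window, at chr14:45658094-45658393 on the minus strand, held 0 matches to any of the letters searched. Among 27025 promoter windows of this length, 28.3% held GAGGAA, 16.0% AGGTCA and 19.1% TGCTGA, so a match is a common event and only describes the letters in the window.

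Library depth ran between 43731003 and 144090985 UMIs (unique molecular identifiers, 1 per captured transcript), and the LPS libraries were the deeper ones. High_Apoe cells had median totals of 15742.5 UMIs (labelled Trpv4-null, LPS), 8210 UMIs (labelled Trpv4-null, untreated), 16708 UMIs (WT, LPS) and 5821 UMIs (WT, untreated). The other cells of the same libraries had 16068, 7832, 16664.5 and 5621 UMIs in that order, so cluster and rest were of like depth. The median share of UMIs from mitochondrial genes in High_Apoe cells was 3.27%, 5.91%, 3.40% and 5.98%, against 3.18%, 6.18%, 3.01% and 6.07% in other cells in the same library order. Of all barcodes, 74 were found in more than 1 library, among them those of 17 High_Apoe cells. Without these cells the share of the cluster was between 8.69% and 15.6%, and the gene counts given below moved by at most 4.

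Trpv4 RNA was not lower, beyond counting error, in the libraries labelled Trpv4-null. Levels are given as CPM, a UMI sum scaled to a total of 1000000. In High_Apoe cells Trpv4 had 96 UMIs, or 10.3 CPM (95% exact Poisson interval 8.38 to 12.6), in the labelled Trpv4-null LPS library, against 45 UMIs, or 3.30 CPM (2.41 to 4.41), in WT LPS. It had 67 UMIs, or 9.53 CPM (7.38 to 12.1), in the labelled Trpv4-null untreated library, against 67 UMIs, or 9.79 CPM (7.59 to 12.4), in WT untreated. Other cells had 9.55 and 8.43 CPM in the labelled Trpv4-null LPS and untreated libraries, against 1.94 and 5.10 CPM in the WT LPS and untreated libraries. Reads outside a deleted part would still be counted, and neither the deleted part nor the position of the reads is given in the sources used here, so these counts check nothing about the allele. Genotypes are called by their labels throughout.

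Markers of other cell types differed between the cluster and the other cells by list and treatment. Summed over 9 neutrophil markers in the table, High_Apoe cells had 134, 79.5, 109 and 57.9 CPM (labelled Trpv4-null LPS and untreated, then WT LPS and untreated), and other cells 123, 419, 124 and 248. Ngp and Ltf, granule proteins of neutrophils, were at 0 in High_Apoe cells of all 4 libraries. A gene at 0 lies below the level of 3 UMIs, which is 0.323, 0.427, 0.220 and 0.439 CPM in High_Apoe cells of these libraries. The B and plasma cell list reached 181 and 187 CPM in labelled Trpv4-null and WT untreated High_Apoe cells through Ighm, the heavy chain of IgM, against 136 and 132 CPM in other cells, while the B cell gene Ms4a1 was at 0 in High_Apoe cells of all 4 libraries. After LPS this list stood at 2.16 and 2.05 CPM in High_Apoe cells, against 2.85 and 4.09 CPM in other cells. The osteoclast list summed to 59.5, 87.0, 64.1 and 98.1 CPM in High_Apoe cells, against 42.9, 109, 45.7 and 119 CPM in other cells, and so was higher in the cluster with LPS and lower untreated. The monocyte list, which macrophages share in part, summed to 1209, 1272, 1037 and 959 CPM in High_Apoe cells, against 1539, 1677, 1328 and 1442 CPM in other cells. The dendritic cell list summed to 2850, 612, 2743 and 617 CPM in High_Apoe cells, against 2937, 630, 2836 and 594 CPM in other cells. The erythroid and megakaryocyte list summed to 3937, 2408, 3375 and 1436 CPM, against 4619, 2556, 3904 and 1438 CPM. Only 1 member of that list, Pf4, reached 20 CPM in High_Apoe cells. The T and NK cell list stood at 14.6, 82.9, 9.53 and 89.5 CPM, against 27.4, 134, 15.9 and 147 CPM. The progenitor list reached at most 2.56 CPM and the mast cell and basophil list at most 2.59 CPM in High_Apoe cells. There the eosinophil list reached at most 21.3 CPM and the stromal and endothelial list at most 21.6 CPM. All 18 macrophage identity genes listed passed the filter on low values given below, and all 3 label markers of the cluster were detected in each library.

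The cluster made up a smaller share of the LPS libraries. It held 572 of 6565 cells, or 8.71% (95% Clopper-Pearson interval 8.04 to 9.42), in the labelled Trpv4-null LPS library and 816 of 5485 cells, or 14.9% (13.9 to 15.8), in the labelled Trpv4-null untreated library. It held 784 of 8288 cells, or 9.46% (8.84 to 10.1), in the WT LPS library and 1095 of 7028 cells, or 15.6% (14.7 to 16.4), in the WT untreated library. The share with LPS was 0.586 times that without in labelled Trpv4-null cells and 0.607 times that without in WT cells. Between genotypes, labelled Trpv4-null over WT, the ratios were 0.921 with LPS and 0.955 untreated, nearer to 1 than either LPS ratio. Apoe, which names the cluster, itself differed with LPS, so these shares describe where the authors drew the cluster in each library and not a count of a fixed cell type. Fewer cells entering the cluster and less Apoe RNA per cell cannot be told apart.

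Apoe lies at chr7:19696109-19699188 on the minus strand (GRCm38), and its level in High_Apoe cells was the highest of the 8 clusters compared in each library. The cluster High_Btg1 was left out of these comparisons because it has too few cells. Apoe had 3250 CPM (95% exact Poisson interval 3214 to 3287) in High_Apoe cells of the labelled Trpv4-null LPS library and 13745 CPM (13659 to 13832) in those of the labelled Trpv4-null untreated library. It had 2737 CPM (2709 to 2764) in High_Apoe cells of WT LPS and 13393 CPM (13307 to 13480) in those of WT untreated. The other cells of the same libraries had 555, 3573, 343 and 2659 CPM in that order. The log2 ratios of High_Apoe over other cells, after adding 1 CPM to both, were 2.55, 1.94, 2.99 and 2.33. They were larger in the LPS libraries than in the untreated ones, although the absolute level was lower there.

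The runner-up cluster was Tmem176+ in the labelled Trpv4-null LPS (925 CPM), labelled Trpv4-null untreated (5809 CPM) and WT LPS (827 CPM) libraries, and Ifit1bl1+_Cmpk2+ in WT untreated (5428 CPM). High_Apoe stood 3.51, 2.37, 3.31 and 2.47 times above its runner-up in those libraries, beyond the counting intervals. The lowest clusters were Cd74+ in the labelled Trpv4-null LPS (315 CPM) and WT untreated (1708 CPM) libraries and Macrophage in the labelled Trpv4-null untreated (2850 CPM) and WT LPS (205 CPM) libraries. High_Apoe cells were 35.3%, 40.4%, 45.5% and 48.3% of the Apoe UMIs of the labelled Trpv4-null LPS, labelled Trpv4-null untreated, WT LPS and WT untreated libraries, against 8.51%, 14.96%, 9.47% and 15.6% of all UMIs. Since the clusters were made from these same counts, every comparison of the cluster with the rest is a description of how it was drawn and no test.

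**Figure D1:**
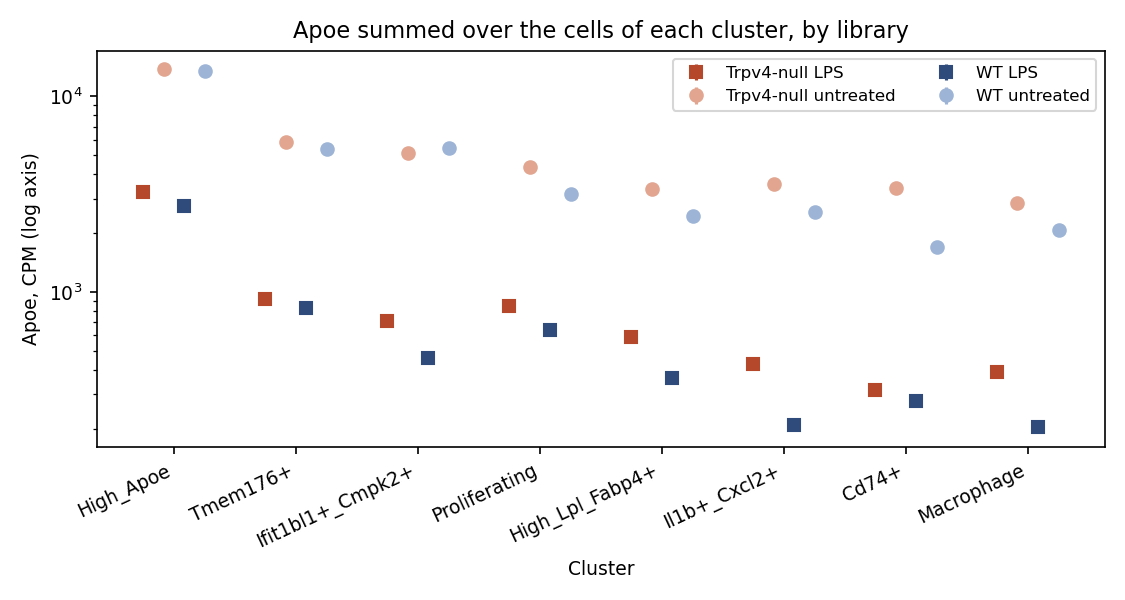
Apoe level (CPM, log axis) in each of 8 clusters, 1 point per library (colour and shape); points are sums over the cells of a cluster and bars are 95% counting intervals, smaller than most points. High_Apoe is the highest in each library, at 3250 and 13745 CPM in the labelled Trpv4-null LPS and untreated libraries and at 2737 and 13393 CPM in the WT LPS and untreated libraries.

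Cell by cell, every High_Apoe cell lay above the median of the other cells of its library, and the upper end of the other cells overlapped the cluster. The median High_Apoe cell had 2746 Apoe CPM in labelled Trpv4-null LPS, 12410 CPM in labelled Trpv4-null untreated, 2208 CPM in WT LPS and 11672 CPM in WT untreated. The median other cell had 260, 2428, 61.4 and 1418 CPM in the same libraries. The lowest High_Apoe cell was at 419, 6097, 559 and 5604 CPM, above the median of the other cells each time. No High_Apoe cell was without an Apoe UMI, while 1272, 321, 3043 and 980 other cells were.

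The 90th percentile of the other cells was at 1368 CPM in labelled Trpv4-null LPS, 7438 CPM in labelled Trpv4-null untreated, 885 CPM in WT LPS and 6231 CPM in WT untreated, above the lowest High_Apoe cell each time. Of the other cells, 2.57%, 2.25%, 2.72% and 2.09% had at least the median Apoe level of the High_Apoe cells (labelled Trpv4-null LPS and untreated, then WT LPS and untreated). At least the 10th percentile of the High_Apoe cells was reached by 6.97%, 6.90%, 6.85% and 5.85% of them. The Apoe level had no steady order with depth. From the shallowest to the deepest of 5 groups of High_Apoe cells of equal size it was 13037, 13668, 13486, 14006 and 12907 CPM in WT untreated. In WT LPS the same groups had 3200, 2665, 2749, 2975 and 2443 CPM. The labelled Trpv4-null groups had 3335, 3616, 3583, 3315 and 2754 CPM with LPS and 13093, 13239, 13850, 14615 and 13611 CPM untreated. In both LPS libraries the deepest group was the lowest, with a counting interval apart from those of the other groups.

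The name describes a level relative to the library, not a fixed amount. In labelled Trpv4-null cells, 46.3% of the 4669 untreated cells outside the cluster had at least 2746 Apoe CPM, the median of the LPS High_Apoe cells. In WT cells, 39.9% of the 5933 untreated cells outside the cluster had at least 2208 CPM, the LPS median there. All 816 untreated labelled Trpv4-null and all 1095 untreated WT High_Apoe cells were above these medians. Thus many untreated cells outside the cluster carried as much Apoe RNA, as a share of their UMIs, as a typical LPS-treated cell within it.

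**Figure D2:**
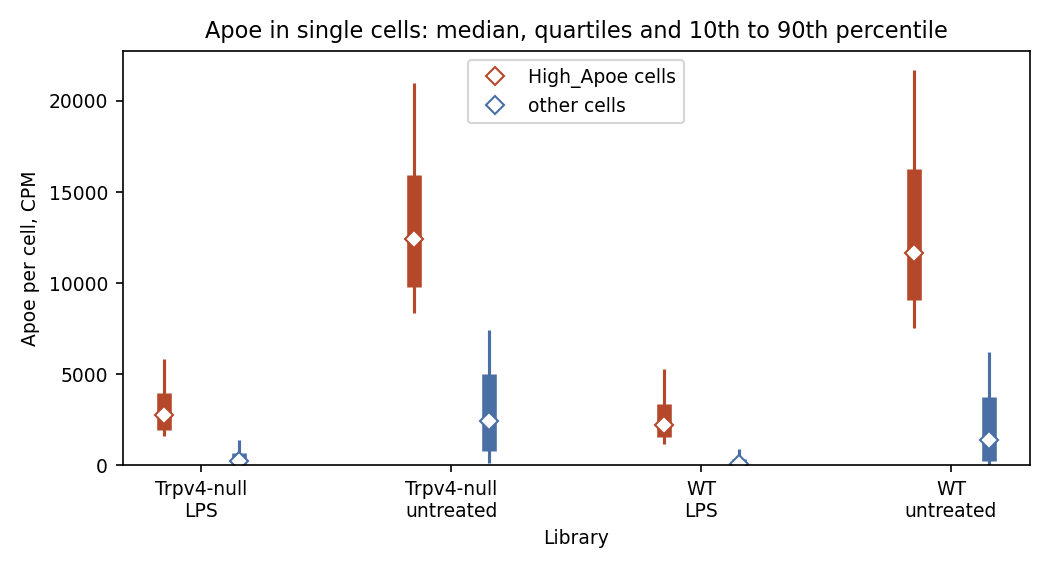
Apoe per cell (CPM) in High_Apoe cells and other cells of each library. Diamonds are medians, thick lines the quartiles and thin lines the 10th to 90th percentiles over cells, which are not replicates; the LPS High_Apoe medians, 2746 and 2208 CPM, lie within the spread of the untreated other cells, whose medians are 2428 (labelled Trpv4-null) and 1418 CPM (WT).

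The other label markers separated the cluster far less. C1qb (chr4:136880129-136886187, minus strand) had 2609, 2577, 2407 and 2616 CPM in High_Apoe cells of the labelled Trpv4-null LPS, labelled Trpv4-null untreated, WT LPS and WT untreated libraries. Other cells had 2035, 2155, 1844 and 2296 CPM in that order. High_Apoe ranked first of the 8 clusters in 3 libraries and the third in WT untreated. Of the High_Apoe cells, 30.4%, 34.4%, 28.6% and 40.4% were at or below the median C1qb level of the other cells, so single cells overlapped widely.

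The other C1q chains had a like pattern with a treatment difference for C1qa. C1qa (chr4:136895917-136898803, minus strand) had 1370, 638, 1289 and 638 CPM in High_Apoe cells, against 928, 606, 808 and 595 CPM in other cells (labelled Trpv4-null LPS and untreated, then WT LPS and untreated). It was the highest of 8 clusters in both LPS libraries, whereas in the untreated libraries the cluster Macrophage was higher, at 740 (labelled Trpv4-null) and 729 CPM (WT). C1qc (chr4:136889804-136893065, minus strand) had 1585, 1430, 1380 and 1413 CPM in High_Apoe cells, against 1223, 1348, 1050 and 1288 CPM in other cells. All 3 chains were higher in High_Apoe cells than in other cells in each of the 4 libraries.

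Lyz2 (chr10:117277331-117282321, minus strand) had 16578, 24282, 19327 and 27361 CPM in High_Apoe cells, against 14128, 18495, 15635 and 21623 CPM in other cells. It was the highest of 8 clusters in 3 libraries, and in the labelled Trpv4-null LPS library Il1b+_Cxcl2+ was above it at 16906 CPM. Of the High_Apoe cells, 36.5%, 20.6%, 29.0% and 27.2% were at or below the Lyz2 median of the other cells. Of the 3 label markers, Apoe was the one for which no High_Apoe cell lay at or below the median of the other cells.

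Few other genes distinguished High_Apoe cells by a large fold. A gene was compared where the higher side had at least 20 CPM and 30 UMIs, and 4738 genes met this in all 4 libraries. Apoe was the single gene at least 2-fold higher than in other cells in all 4, which is 0.0211% of genes, and 11 genes (0.232%) were at least 2-fold lower. Smaller differences with the same sign in all 4 libraries were common: 806 genes (17%) were higher and 1266 (26.7%) lower. The median log2 ratio over all compared genes was -0.02.

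The genes next to Apoe by median ratio were Fabp5, Mgst1 and Ddhd1. Fabp5 (chr3:10012548-10016607, plus strand), which encodes a fatty acid carrier of the cytosol, had 3575, 1573, 3048 and 1569 CPM in High_Apoe cells, against 2116, 1083, 1888 and 1003 CPM in other cells (labelled Trpv4-null LPS and untreated, then WT LPS and untreated). The log2 ratios were 0.76, 0.54, 0.69 and 0.65, yet the cluster High_Lpl_Fabp4+ was above it with 4332, 2364, 4138 and 2108 CPM. Mgst1 (chr6:138140316-138156755, plus strand), a membrane glutathione transferase, had 174, 381, 210 and 392 CPM in High_Apoe cells, against 124, 258, 135 and 241 CPM in other cells, with a median log2 ratio of 0.60. Ddhd1 (chr14:45588467-45658143, minus strand), a phospholipase, had 40.4, 29.4, 50.0 and 31.0 CPM in High_Apoe cells, against 24.2, 22.4, 27.7 and 22.0 CPM in other cells, with a median of 0.59. In each of these genes all 4 libraries had the same direction.

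Several of these genes were far lower in the LPS libraries and yet, within each library, higher in the cluster. Selenop, a secreted selenium carrier, had 402, 4944, 475 and 4778 CPM in High_Apoe cells, against 271, 3592, 315 and 3364 CPM in other cells (median log2 ratio 0.54). Gas6, a bridge between dying cells and their receptors, had 65.4, 552, 75.2 and 619 CPM in High_Apoe cells, against 44.2, 406, 48.2 and 446 CPM in other cells (0.51). Mrc1, the mannose receptor, had 80.3, 607, 99.0 and 600.0 CPM in High_Apoe cells, against 48.7, 488, 60.3 and 494 CPM in other cells (0.51). Mertk, the receptor that Gas6 engages on macrophages, had 70.4, 122, 76.7 and 140.0 CPM in High_Apoe cells, against 46.6, 101, 50.0 and 108 CPM in other cells (0.48). These cells had more Gas6 and more Mertk RNA than the other cells of their library, summed, in all 4 libraries. By single cluster, Mertk was highest of the 8 in High_Apoe except in the labelled Trpv4-null untreated library. There the cluster Macrophage had 125 CPM, and in WT untreated it had 135 CPM. The lowest untreated Mertk was in Proliferating, at 59.4 (labelled Trpv4-null) and 63.2 CPM (WT). Mrc1 was highest in High_Apoe with LPS, while untreated Il1b+_Cxcl2+ had 609 (labelled Trpv4-null) and 615 CPM (WT). Gas6 was highest in High_Apoe in each library. The remaining genes named by rank were Ncapg2 (a condensin subunit, 0.52), Arhgap19 (0.51), Rnase4 (a secreted ribonuclease, 0.50), Hvcn1 (a proton channel, 0.50) and Rxra (the partner of LXR, 0.49).

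In 23 genes (0.485%) the High_Apoe cluster was the highest of 8 clusters in all 4 libraries. Besides Apoe they included Mgst1, Selenop, Gas6 and Arhgap19, the lysosomal enzymes Man2b1 and Hexa, the Wnt coreceptor Lrp6, the cobalamin carrier Tcn2, the haem-binding Hebp1, the bile salt and drug transporter Abcc3 and the granulocyte colony-stimulating factor receptor Csf3r. The rest were Pygl, Pnpla7, AC149090.1, Ypel3, Slc7a7, Atp13a2, Aldh2, Cd300a, Plod1, P2ry6 and Mpv17. In 24 genes (0.507%) it was the lowest of 8. They included actin and membrane genes (Flna, Actg1, Tpm1, Tpm4, Tes, Myo1e, Anxa5), the calcium-binding S100a4, the lipase Lpl, and Stap1 and Uchl1.

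By gene list, the lysosomal genes leaned upward. Of 28 cathepsin and lysosome genes compared, out of 30 listed, 22 had a median ratio above 0, 17 of them in all 4 libraries, against 41.4% above 0 at the median and 17% in all 4 among all genes. The median log2 ratio was 0.09. Ctsh, a cathepsin, had 301, 254, 334 and 296 CPM in High_Apoe cells, against 242, 189, 277 and 230 CPM in other cells (median log2 ratio 0.34). Lgmn, Glb1, Ctsb, Ctsd and Hexa had medians of 0.20, 0.21, 0.16, 0.15 and 0.18. Ctsl, a cathepsin too, was the other way, with 2009, 2524, 1243 and 1262 CPM in High_Apoe cells, against 2612, 3059, 1565 and 1663 CPM in other cells (-0.36).

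Lists of resident genes, receptors and complement leaned the same way by small amounts. Of the resident and alternative macrophage genes, 7 of 9 were above 0 (median 0.20); of the scavenger and phagocytic receptors, 9 of 14 (0.09); of C1q and other complement, 6 of 8 (0.17); and of macrophage identity genes, 14 of 18 (0.08), against 41.4% of all genes. Summed over the 19 resident genes in the table, those under the filter included, High_Apoe cells stood at 0.942 (labelled Trpv4-null) and 0.961 times (WT) the other cells with LPS, and at 1.17 and 1.24 times untreated. With LPS the sum was thus on the other side from the median over the 4 libraries. Of 40 cytosolic ribosomal protein genes, 36 were above 0 and 26 of them in all 4 libraries, but by a median of only 0.05. Cholesterol efflux and LXR genes were split, with 7 of 13 above 0 (median 0.04). Among them Pltp, the phospholipid transfer protein, had 666, 1018, 507 and 848 CPM in High_Apoe cells, against 442, 773, 387 and 680 CPM in other cells (0.39). Abca1, the cholesterol exporter that loads apolipoproteins, had 294, 450, 339 and 491 CPM in High_Apoe cells, against 243, 444, 296 and 469 CPM in other cells (0.13). Abca1 thus differed far less between the cell groups than Apoe.

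Of 10 lipid uptake and storage genes compared, Fabp5 among them, 7 were below 0 with a median of -0.24, a share near the 58.6% of all genes below 0. Summed over the 15 genes of the list, High_Apoe cells stood at 1.08 times the other cells in both LPS libraries and at 0.950 (labelled Trpv4-null) and 0.917 times (WT) in the untreated ones. Lpl, which releases fatty acids from lipoproteins, had 634, 93.1, 353 and 168 CPM in High_Apoe cells, against 1315, 425, 809 and 648 CPM in other cells, with log2 ratios of -1.05, -2.18, -1.19 and -1.94. Cd36, a fatty acid and oxidized lipid receptor, had 258, 104, 174 and 184 CPM in High_Apoe cells, against 269, 226, 208 and 300.05 CPM in other cells (-0.48). Plin2, the lipid droplet coat, was at -0.37. Both Lpl and Cd36 were further below the other cells in the untreated libraries than in the LPS ones.

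**Figure D3:**
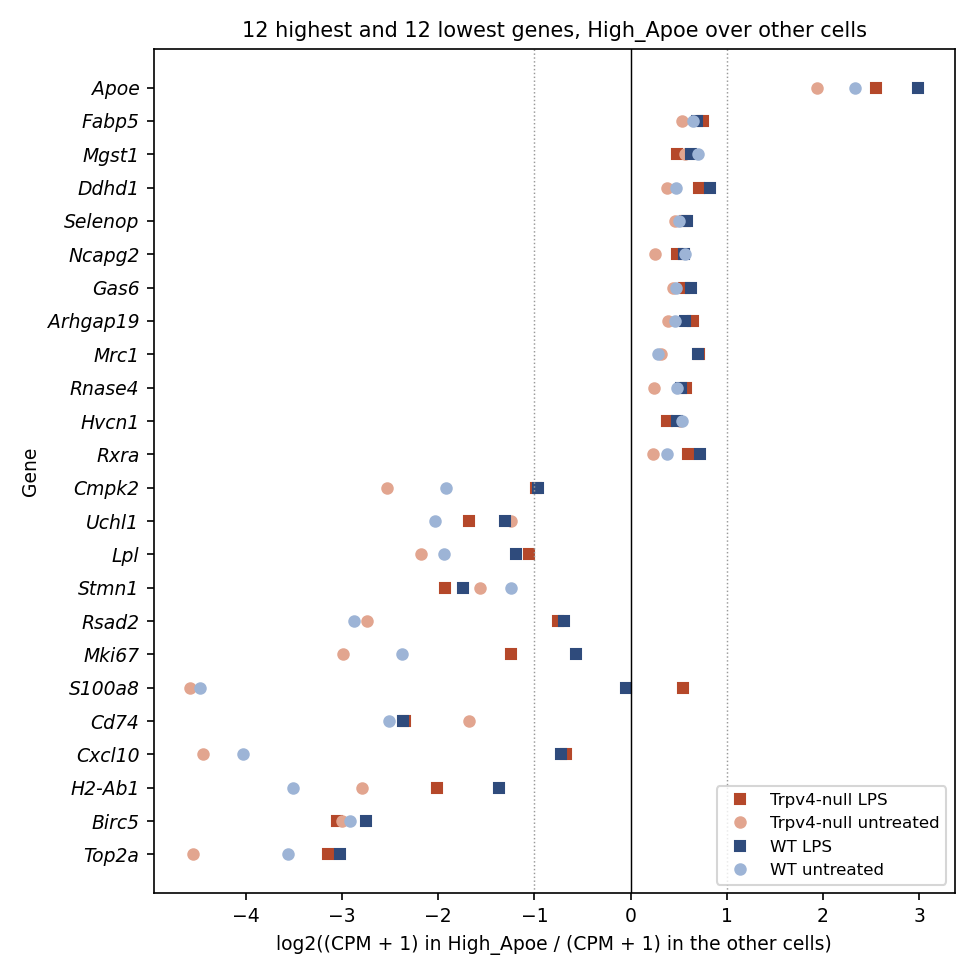
Log2 ratio of High_Apoe cells over other cells, after adding 1 CPM to both, for the 12 highest and 12 lowest genes, 1 point per library; dotted lines mark a 2-fold difference. Apoe stands alone at 1.94 to 2.99, the next genes have medians between 0.49 (Rxra) and 0.67 (Fabp5), and the low end is led by Top2a with a median of -3.35.

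The low end held cell cycle, antigen presentation and interferon genes. Top2a, a topoisomerase of dividing cells, had 4.10, 3.70, 3.30 and 3.51 CPM in High_Apoe cells, against 43.9, 109, 33.8 and 52.2 CPM in other cells (median log2 ratio -3.35). Birc5 (-2.96), Mki67 (-1.81) and Stmn1 (-1.65) were also low. All 6 G2 and M phase genes compared, of 26 listed, were below 0, against 58.6% of all genes. In High_Apoe cells at most 4 of the 26 reached 20 CPM in a library. Some therefore entered through the other cells alone, where they could only be below 0. H2-Ab1, a chain of MHC class II, had 14.7, 7.39, 18.03 and 4.39 CPM in High_Apoe cells, against 62.1, 57.2, 48.1 and 60.5 CPM in other cells (-2.40). Cd74, the invariant chain, had 34.7, 84.6, 19.5 and 46.5 CPM in High_Apoe cells, against 181, 273, 105 and 269 CPM in other cells (-2.36). Dividing cells and Cd74+ cells had clusters of their own among the other cells.

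All 25 interferon-stimulated genes compared were below 0 at the median (-0.22), against 58.6% of all genes, and 19 of them in all 4 libraries, against 26.7%. In WT untreated High_Apoe cells 14 of the 39 in the table reached 20 CPM, so some entered there through the other cells alone. Rsad2, an antiviral enzyme, had 853, 12.1, 557 and 8.63 CPM in High_Apoe cells, against 1436, 86.6, 898 and 69.6 CPM in other cells (-1.75). Ifit1, which binds viral RNA, had 904, 6.68, 772 and 7.16 CPM in High_Apoe cells, against 1141, 64.2, 925 and 46.0 CPM in other cells (-1.43). Cxcl10, an interferon-induced chemokine, had 1409, 0.569, 825 and 1.02 CPM in High_Apoe cells, against 2244, 33.1, 1361 and 32.1 CPM in other cells (-2.38). Of 28 actin and adhesion genes 25 were below 0 at the median (-0.15), 23 of them in all 4 libraries. All 16 glycolysis and hypoxia genes were below 0 at the median (-0.14), 9 of them in all 4 libraries. Of 8 chemokines 7 were below 0 at the median (-0.56), 6 of them in all 4 libraries. S100a8, a neutrophil and monocyte protein, had 23.9, 3.98, 24.0 and 2.19 CPM in High_Apoe cells, against 16.1, 118, 24.9 and 70.1 CPM in other cells. In the untreated libraries 97.7% (labelled Trpv4-null) and 97.1% (WT) of the S100a8 UMIs of the other cells lay in 10 cells.

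Set against the cluster Macrophage alone, the largest cluster with 8740 cells, most of these differences were small. Its cells had medians of 13359 and 6858 UMIs (labelled Trpv4-null LPS and untreated) and 13564.5 and 4859 UMIs (WT LPS and untreated). Each was below the median of High_Apoe cells given above. Of 4694 genes, 3 (0.0639%) were at least 2-fold higher in all 4 libraries and 1 (0.0213%) at least 2-fold lower, named here after their values were seen. Beside Apoe the higher ones were Fabp4 and Fabp5, the 2 fatty acid binding proteins of macrophages. Fabp4 had 144, 32.6, 97.3 and 59.8 CPM in High_Apoe cells, against 36.3, 10.8, 23.2 and 11.4 CPM in the cluster Macrophage (log2 ratios 1.96, 1.51, 2.02 and 2.29). High_Apoe ranked the third of 8 clusters for Fabp4 in 3 libraries and the second in WT LPS, and High_Lpl_Fabp4+ was above it with 355, 166, 237 and 202 CPM. Fabp5 had log2 ratios of 1.25, 1.14, 1.20 and 1.30 against 1507, 711, 1323 and 638 CPM in the cluster Macrophage. The lower gene was S100a9, with 0.108, 0.569, 0.293 and 0.292 CPM in High_Apoe cells, against 29.6, 508, 34.6 and 118 CPM in the cluster Macrophage. S100a9 is a neutrophil and monocyte gene, and in the untreated libraries the neutrophil granule gene Ngp was at 0 in High_Apoe cells, against 88.98 (labelled Trpv4-null) and 21.3 CPM (WT) in the cluster Macrophage. The part of neutrophils in the S100a9 value was not tested.

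Pf4, a platelet and macrophage chemokine, was next, with 3934, 2407, 3370 and 1434 CPM in High_Apoe cells, against 2295, 1575, 2010 and 913 CPM in the cluster Macrophage (median log2 ratio 0.70). Of the lysosome list 19 of 28 genes were above 0 (median 0.06), and of the resident genes 7 of 9 (0.18), against 34.7% of all genes above 0. Of the actin list 19 of 28 were below 0 (-0.09), close to the 65.3% of all genes below 0. Of 14 lipid-associated macrophage genes 11 were above 0, with a median of 0.17. The interferon list was closer to the rest than against all other cells, with 15 of 17 genes below 0 and a median of -0.06. C1q and other complement was even, 4 above and 4 below 0. Against the most numerous macrophages of the same libraries, Apoe and 2 fatty acid binding proteins had a 2-fold or larger excess in all 4 libraries, and both binding proteins were higher still in High_Lpl_Fabp4+ cells.

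LPS changed the expression of High_Apoe cells on a large scale. At least 2-fold higher with LPS were 491 of 6239 genes (7.87%) in labelled Trpv4-null and 454 of 6251 (7.26%) in WT cells, and at least 2-fold lower were 1245 (20%) and 1095 (17.5%). The median log2 ratio of all genes was -0.38 in both genotypes. With median-of-ratios scaling it was 0.11 (labelled Trpv4-null) and 0.06 (WT), and the counts became 906 higher and 554 lower in labelled Trpv4-null and 771 higher and 495 lower in WT cells. Differences are therefore best read against -0.38. The parts of very abundant RNAs and of library depth in that median were not tested.

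Acute phase, chemokine and interferon genes led. Saa3, a serum amyloid A made by macrophages, had 38848 CPM with LPS, against 6.11 CPM untreated, in labelled Trpv4-null High_Apoe cells and 50435 CPM with LPS, against 1.61 CPM untreated, in WT ones. Ccl5, a T cell and monocyte attractant, had 13854 CPM with LPS, against 0.853 CPM untreated, in labelled Trpv4-null cells and 13095 CPM with LPS, against 1.75 CPM untreated, in WT cells. Acod1, which makes itaconate, had 1156 against 0.142 CPM in labelled Trpv4-null and 878 against 0.292 CPM in WT cells, LPS over untreated. These genes were near absence without LPS, with 0.142 CPM standing for 1 UMI in labelled Trpv4-null cells.

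Monocyte attractants and sensing receptors were similar. Ccl7 had 971 CPM with LPS, against 0.853 CPM untreated, in labelled Trpv4-null and 519 CPM with LPS, against 4.39 CPM untreated, in WT High_Apoe cells. Ccl12 had 529 against 0.853 CPM and 351 against 0.146 CPM. Fpr2, a formyl peptide receptor, had 221 against 0.142 CPM and 225 against 0.292 CPM in labelled Trpv4-null and WT cells, LPS over untreated. Lcn2, which binds bacterial iron carriers, had 152 against 0.142 CPM and 208 against 0.292 CPM. Cfb, factor B of the alternative complement pathway, had 86.0 and 96.1 CPM with LPS in labelled Trpv4-null and WT cells and 0 UMIs untreated in both, where 3 UMIs would be 0.427 and 0.439 CPM.

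By list, 37 of 39 interferon-stimulated genes in labelled Trpv4-null and 38 of 39 in WT High_Apoe cells were at least 2-fold higher, with median log2 ratios of 3.40 and 3.47. Of chemokines, 12 of 14 (labelled Trpv4-null, median 4.88) and 11 of 13 (WT, 2.48) were past that fold. The mediators of inflammation had 8 of 9 (6.17) and 8 of 10 (5.39) past it. Of MHC and antigen presentation genes, 8 of 12 were at least 2-fold higher in each genotype (1.25 in labelled Trpv4-null and 1.22 in WT), but Cd74 had log2 ratios of -1.26 and -1.21. Of NF-κB subunits and inhibitors, 6 of 17 were at least 2-fold higher in each (0.87 and 0.73), with Nfkbia, the inhibitor IκBα, at 379 against 90.7 CPM in labelled Trpv4-null and 346 against 101 CPM in WT cells. Glycolysis and hypoxia genes had medians of 0.63 and 1.02. The shares over all genes were 7.87% and 7.26%, but a gene could enter through its LPS level alone. Untreated, 20 of 39 interferon-stimulated genes, 5 of 19 chemokines and 2 of 16 mediators reached 20 CPM in labelled Trpv4-null High_Apoe cells. In WT ones 14, 7 and 2 did. Members low at both treatments were left out, so the shares of these lists depend on the filter. The same lists were high in the other cells, with interferon medians of 2.99 and 3.32.

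Genes of resident, lipid-exporting macrophages were lower with LPS. Apoe itself was at 0.236 (95% counting interval 0.233 to 0.240) of its untreated level in labelled Trpv4-null and 0.204 (0.202 to 0.207) in WT High_Apoe cells. Over all other cells it was at 0.155 and 0.129, and over the other 7 clusters taken singly between 0.0926 and 0.195 in labelled Trpv4-null and between 0.0811 and 0.200 in WT cells. In WT cells the highest of these, 0.200 in Proliferating (interval 0.195 to 0.206), overlapped the value of High_Apoe cells. In labelled Trpv4-null cells the highest, 0.195 in Proliferating (0.191 to 0.200), lay below it. Membership of the cluster in each library was itself tied to high Apoe. C1qb was at log2 ratios of 0.02 in labelled Trpv4-null and -0.12 in WT cells, the WT value being 0.34 with median-of-ratios scaling, while C1qa was at 1.10 and 1.01. Lyz2 was at -0.55 and -0.50, close to the median of all genes.

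Selenop had 402 CPM with LPS, against 4944 CPM untreated, in labelled Trpv4-null and 475 CPM with LPS, against 4778 CPM untreated, in WT High_Apoe cells (log2 ratios -3.62 and -3.33). Mrc1 (-2.90 and -2.59), Gas6 (-3.06 and -3.03) and F13a1, a transglutaminase of resident cells (-5.61 and -4.54), were likewise low. Of the 11 resident and alternative genes compared, 7 in labelled Trpv4-null and 8 in WT cells were at least 2-fold lower (medians -1.49 and -2.02, against 20% and 17.5% of all genes). Slc40a1, the iron exporter ferroportin, had 5.71 CPM with LPS, against 399 CPM untreated, in labelled Trpv4-null and 7.11 CPM with LPS, against 592 CPM untreated, in WT cells. Fth1, a ferritin chain that stores iron, had 102717 against 34265 CPM and 105272 against 36827 CPM. The gene of the iron exporter was thus low and that of the iron store high in both genotypes.

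At the very low end were Ighm, with 0.108 CPM under LPS against 177 CPM untreated in labelled Trpv4-null and 0.0733 CPM under LPS against 181 CPM untreated in WT High_Apoe cells, and Cd28, a T cell costimulator, with 1.40 against 332 CPM and 3.08 against 255 CPM. The part of B cells or their free RNA in the Ighm level was not tested. Hpgd, which breaks down prostaglandins, had 0 UMIs with LPS in both genotypes, below 0.323 CPM in labelled Trpv4-null and 0.220 CPM in WT cells, against 35.3 (labelled Trpv4-null) and 43.4 CPM (WT) untreated. Gpr34 (-5.39 and -5.13) and Ramp1 (-5.48 and -5.38), both receptor genes, were also near absence with LPS.

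Lipid genes went in several directions. Nr1h3, which encodes LXRα, had 132 CPM with LPS, against 4.55 CPM untreated, in labelled Trpv4-null and 118 CPM with LPS, against 7.16 CPM untreated, in WT High_Apoe cells. The other members of the cholesterol efflux and LXR list had mostly negative ratios, the list medians being -0.68 and -0.54, with Lipa, the lysosomal acid lipase, at -1.05 and -1.91. The receptor gene was thus higher and Apoe, a gene it is known to drive, lower in the same cells. Msr1, a scavenger receptor for modified lipoproteins, had 558 against 40.8 CPM and 500.0 against 49.0 CPM in labelled Trpv4-null and WT cells, LPS over untreated. The lipid uptake and storage list had a median of 1.24 in labelled Trpv4-null cells but -0.08 in WT cells, and the WT median was 0.37 with median-of-ratios scaling, the opposite sign. Trem2, a lipid receptor of macrophages, was at -1.26 and -1.74.

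Smaller list medians depended on the scaling. The lysosome list had medians of -0.33 (labelled Trpv4-null) and -0.45 (WT), which became 0.17 and 0.01 with median-of-ratios scaling. The immediate-early genes had medians of -0.44 and -1.46, and the labelled Trpv4-null value became 0.04 with that scaling. Mitochondrially encoded genes (-0.95 and -0.93) and cytosolic ribosomal protein genes (-0.85 and -0.66) were below the median of all genes in both genotypes, and their medians stayed below 0 with median-of-ratios scaling, at -0.46 and -0.47 and at -0.35 and -0.21.

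**Figure D4:**
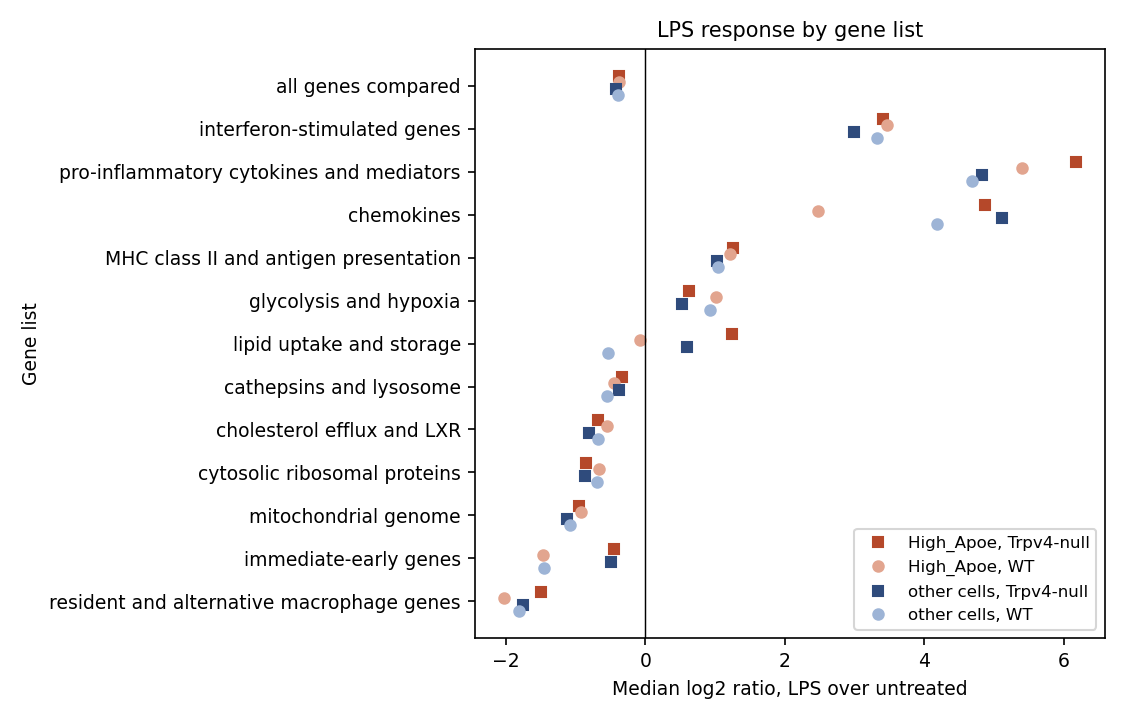
Median log2 ratio of LPS over untreated for the gene lists in High_Apoe cells and in other cells, by genotype; the median of all genes lies at -0.38 in High_Apoe cells of both genotypes. Interferon, chemokine and pro-inflammatory lists lie far to the high side in both cell groups, the resident list to the low side.

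The LPS response of High_Apoe cells was close to that of the other cells. The difference of log2 ratios, High_Apoe minus other, was within 0.5 in both genotypes for 5711 of 5968 genes (95.7%). It was at least 1 in both for 24 genes (0.402%) and at most -1 for 2 genes (0.0335%), Ube2c and Cenpa, both of cell division. The largest were S100a8 (5.12 in labelled Trpv4-null, 4.43 in WT), Lcn2 (3.83 and 3.64), Cxcl10 (3.77 and 3.31), Ccl5 (2.63 and 3.23), Ifit1 (2.75 and 2.26), Ifit2 (2.41 and 2.16), Rsad2 (1.99 and 2.19) and Iigp1 (2.47 and 1.60). For Apoe it was 0.60 and 0.66, and for C1qa 0.49 and 0.57.

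For the interferon genes these differences lay in the untreated cells. With LPS, Cxcl10, Ifit1 and Rsad2 were lower in High_Apoe cells than in other cells, and without LPS they were nearly absent from High_Apoe cells, Cxcl10 with 4 UMIs in labelled Trpv4-null and 7 in WT cells. In the untreated other cells, a few cells held most of the RNA. The cluster Ifit1bl1+_Cmpk2+, 179 untreated cells of the labelled Trpv4-null library and 177 of the WT library, held 88.0% and 91.5% of the other cells' Cxcl10 UMIs, 80.6% and 79.6% of those of Ifit1 and 80.1% and 83.5% of those of Rsad2. For Lcn2, 10 cells held 99.0% and 98.7%. The neutrophil marker sum, given above, was higher in the untreated other cells too, and its part in the S100a8 and Lcn2 values was not tested.

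Against the cluster Macrophage alone, which does not hold the Ifit1bl1+_Cmpk2+ cells, 2 of 5976 genes (0.0335%) were at least 1 higher in both genotypes, Lcn2 and S100a8, and 0 were at least 1 lower (0.0%). There Cxcl10 had differences of 0.45 (labelled Trpv4-null) and 0.62 (WT), Ifit1 0.65 and 0.49, Rsad2 0.45 and 0.32, and Ccl5 1.54 and 0.81. Ifit2 had 0.42 and 0.07, and Iigp1 0.10 and -0.46, the WT value with the opposite sign. Of the genes lower against all other cells, Ube2c had -0.38 and 0.40, and Cenpa 0.071 and 0.004. Apoe had 0.79 and 1.04, more than against all other cells. The cells rich in Lcn2 and S100a8 lay in part in the cluster Macrophage itself, which held 97.8% (labelled Trpv4-null) and 48.3% (WT) of the untreated other cells' Lcn2 UMIs and 95.6% and 42.4% of those of S100a8. Ngp, the neutrophil granule gene, moved with them, with 0 and 3.97 CPM in the LPS-treated cells of that cluster, against 88.98 and 21.3 CPM in its untreated cells (labelled Trpv4-null and WT). The part of neutrophils in these calls was not tested. Untreated Lcn2 rested on 1 UMI in labelled Trpv4-null and 2 UMIs in WT High_Apoe cells.

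The genotype labels made a small difference within the cluster beside LPS. With LPS, 98.1% of 5219 genes lay within 0.5 log2 between labelled Trpv4-null and WT High_Apoe cells, and untreated 97.6% of 6075. With LPS 7 genes (0.134%) were at least 2-fold higher and 2 (0.0383%) at least 2-fold lower in labelled Trpv4-null cells. Untreated, 5 (0.0823%) were at least 2-fold higher and 11 (0.181%) at least 2-fold lower. With 1 library a group, the genotype, the mice and the library cannot be told apart. Apoe differed little inside the cluster, with ratios of labelled Trpv4-null over WT of 1.19 with LPS and 1.03 untreated, and more in the other cells, with 1.62 and 1.34.

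With LPS, chemokines and lipid-associated genes were on the labelled Trpv4-null side. Ccl4 had 451 CPM in labelled Trpv4-null and 145 CPM in WT High_Apoe cells, a ratio of 3.12 (95% counting interval 2.96 to 3.29). Ccl8 had 176 and 66.2 CPM (2.66), and Ccl3 215 and 100.1 CPM (2.14). All 14 chemokines compared were above 0, with a median log2 ratio of 0.80, against 44.1% of all genes above 0. Cd5l, a secreted scavenger protein of macrophages, had 28.0 and 5.35 CPM (5.24, interval 4.03 to 6.89), and Ly6a, a surface protein induced by interferon, 130.0 and 53.8 CPM (2.42). Col18a1 (2.28) and Emp1 (2.30) were also named by rank. In the other cells the ratio of Ccl4 was 1.98 and that of Cd5l 2.32, the same direction with less distance.

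All 15 lipid-associated macrophage genes were above 0 with LPS, with a median of 0.25. Gpnmb, a lysosomal and surface glycoprotein of lipid-laden macrophages, had 1681 CPM in labelled Trpv4-null and 914 CPM in WT High_Apoe cells (1.84), and Lpl 634 and 353 CPM (1.80). Of interferon-stimulated genes 36 of 39 were above 0 (median 0.18), and of lipid uptake genes 8 of 10 (0.36). Glycolysis and hypoxia genes lay on the WT side, 17 of 21 below 0, with a median of -0.29, against 55.9% of all genes below 0.

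The inflammatory mediators were split. Il1b, the interleukin 1β precursor, had 102 CPM in labelled Trpv4-null and 285 CPM in WT High_Apoe cells with LPS (ratio 0.358, interval 0.333 to 0.384). Marco, a scavenger receptor for bacteria, had 86.3 and 283 CPM (0.305, interval 0.282 to 0.329). Il1a was at 0.546, P2rx7, the ATP receptor that triggers interleukin 1 release, at 0.506, and the sialic acid receptor Cd33 at 0.488. Tnf was on the other side, with 72.6 and 44.6 CPM (1.63). The other cells had 0.461 for Il1b and 0.474 for Marco, likewise below 1.

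Untreated, immediate-early genes were on the WT side. Dusp1, a phosphatase that ends MAP kinase signals, had 93.6 CPM in labelled Trpv4-null and 285 CPM in WT High_Apoe cells (0.328, interval 0.300 to 0.359). Fos had 182 and 456 CPM (0.400), and Fosb 86.3 and 213 CPM (0.404). Of 16 immediate-early genes 15 were below 0, 5 of them at least 2-fold, with a median log2 ratio of -0.58, against 57.7% of all genes below 0. Id3 (0.428), Rgs1 (0.447) and Pparg, the lipid-sensing receptor (0.440), were also named by rank. The other cells had 0.342 for Dusp1 and 0.395 for Fos, so this difference was found across the library.

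On the labelled Trpv4-null side, untreated, were Ahrr, the repressor of the aryl hydrocarbon receptor, with 27.0 and 7.31 CPM in labelled Trpv4-null and WT High_Apoe cells (3.70, interval 2.69 to 5.15), and the collagenase Mmp8 with 36.3 and 10.96 CPM (3.31). Mmp8 is also in the neutrophil list, whose sum was 79.5 CPM in labelled Trpv4-null and 57.9 CPM in WT untreated High_Apoe cells. That sum contains the Mmp8 counts themselves, so it gives no separate measure of neutrophils. The part of neutrophils in the Mmp8 value was not tested. Ctsl had 2524 and 1262 CPM (ratio 2.0) and Irf7, an interferon regulator, a ratio of 2.03. Of 40 cytosolic ribosomal protein genes 35 were above 0, with a median of 0.10, against 42.3% of all genes above 0. Ctsl and Gpnmb were on the labelled Trpv4-null side at both treatments, Gpnmb with a ratio of 1.60 untreated.

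Among the genes named by rank, 8 lay on opposite sides at the 2 treatments, at least 1.5-fold each way. In High_Apoe cells Ccl3, Ccl4, Cd5l, Dusp1, Fos, Klf4, Lpl and Rgs1 were all on the labelled Trpv4-null side with LPS and on the WT side untreated, each with a counting interval clear of 1. Klf4, a transcription factor, had 22.5 CPM in labelled Trpv4-null and 10.9 CPM in WT cells with LPS, and 31.4 and 65.3 CPM untreated. Rgs1, a brake on chemokine receptors, had 60.9 and 31.6 CPM with LPS and 46.6 and 104 CPM untreated. For Lpl the values were 634 and 353 CPM with LPS and 93.1 and 168 CPM untreated. A shift of this kind was not particular to the cluster. In the cluster Macrophage, each of the 8 genes also had a higher log2 ratio of LPS over untreated in labelled Trpv4-null than in WT cells. There Dusp1 had 0.59 against -1.43, Rgs1 0.25 against -1.66 and Lpl 2.75 against 1.06. The difference between treatments was not tested, since each value comes from 1 library.

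**Figure D5:**
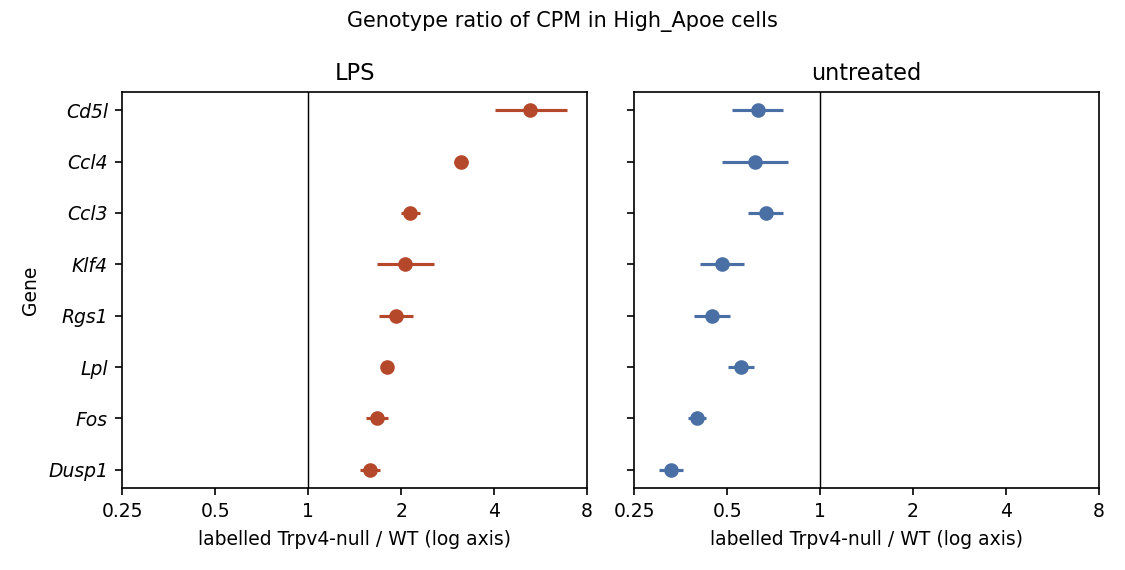
Ratio of CPM in labelled Trpv4-null over WT High_Apoe cells (log axis) for 8 genes, with LPS in the left panel and untreated in the right panel; bars are 95% counting intervals from 1 library a group. With LPS the ratios run from 1.58 for Dusp1 to 5.24 for Cd5l, and untreated from 0.328 for Dusp1 to 0.666 for Ccl3.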

How the data were processed

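Single-cell RNA was captured by poly-A on the 10x Genomics Chromium platform, per the labels' protocols. The authors deposited whole-number UMI counts of 14432 genes in 27366 cells, with each cell's library and cluster name, per the file headers. The deposited cell table also holds the mitochondrial fraction of UMIs, a ratio of log10 genes to log10 UMIs and map coordinates (a score), of which the fraction was used. The submitters' processing notes name Cell Ranger 3.1.0, R 4.2, Seurat 4 and build mm10, with no role or order. Cells in the table have 1003 to 39987 UMIs and at most 9.998% mitochondrial UMIs. No source used here gives the filters behind this, the clustering settings, the treatment of doublets or the use of strand. No doublet caller was run.

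UMIs were summed over the cells of a cluster in a library and divided by the total to give CPM. A log2 ratio is log2 of the quotient of CPM + 1, which understates differences of low genes. Genes entered a comparison at 20 CPM and 30 UMIs in the higher sum, and a difference was counted from 2-fold on. Intervals are 95% exact Poisson (levels), conditional Clopper-Pearson (ratios) and Clopper-Pearson (shares) intervals, and a gene at 0 is read as below the level of 3 UMIs. They cover counting error only. With 1 library a group, no p-value was computed. Genes were named by rank: the 12 highest and 12 lowest against other cells, 10 and 10 for LPS, 8 and 8 for each genotype contrast and for the difference in LPS response, the label markers with C1qa, C1qc and Trpv4, and up to 4 members of each list. Other genes named, as single values of a list or of a count, were chosen after their values were seen. Members and lists were chosen with earlier results of these data known, some lists by an earlier session.

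The alternatives were other scalings (median of ratios, and TMM in edgeR 4.0.16 with R 4.3.3), filters, a pseudocount of 5 CPM, the mean over single cells, deeper cells and other comparators. The calculations used Python 3.11.15, numpy 2.4.6, scipy 1.17.1 and pandas 2.3.3, and were tested on simulated data. Gene positions are from the GENCODE annotation of GRCm38, and the promoter windows are from the RefSeq promoter table in build GRCm38.p6. These sources can place the start of a gene differently.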

Additional observations from a re-analysis of the deposited data

Results flagged for a closer look

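In High_Apoe cells 8 of the genes named by rank had a ratio of labelled Trpv4-null over WT above 1 with LPS and below 1 untreated. They were Ccl3 (2.14 with LPS and 0.666 untreated), Ccl4 (3.12 and 0.616), Cd5l (5.24 and 0.629), Dusp1 (1.58 and 0.328), Fos (1.67 and 0.400), Klf4 (2.06 and 0.481), Lpl (1.80 and 0.555) and Rgs1 (1.93 and 0.447). In the cluster Macrophage, too, the log2 ratio of LPS over untreated was higher in labelled Trpv4-null than in WT cells for each of these 8 genes. Each value comes from 1 library of a group, and the difference between the treatments was not tested.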

How the results depend on the processing

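No paired analysis was possible because no result comes from a test: the labels give no replicate numbers, each group is 1 library, and the cluster and the rest of its library, though paired in 4 libraries, were split on the same counts. Genes at least 2-fold higher in High_Apoe cells than in other cells numbered 1, and 3 against the cluster Macrophage. The 11 lower genes became 48 with a filter of 5 CPM and 10 UMIs, 114 with no filter beyond 1 UMI, 7 with a pseudocount of 5 CPM, 1 against the cluster Macrophage and 22 with clusters weighted equally. With LPS, higher genes numbered 906 (labelled Trpv4-null) and 771 (WT) by median of ratios, 893 and 797 by TMM, and 763 and 702 with no filter. Lower genes numbered 554 and 495 by median of ratios, 570 and 474 by TMM, 2036 and 1693 with the lower filter, and 2448 and 2036 with none. Between genotypes untreated, the 5 higher genes became 25 with the lower filter and 50 with none, and the 11 lower genes 21 and 42. With LPS, the 7 higher genes became 15 and 25, and the 2 lower genes 11 and 26, or 4 as a mean over single cells. The LPS response of High_Apoe cells minus that of other cells was higher for 66 genes with no filter, 13 with a pseudocount of 5 CPM and 2 against the cluster Macrophage. It was lower for 5 genes with the lower filter, 21 with none, and 0 both with that pseudocount and against the cluster Macrophage. A lower filter tests more genes of few UMIs, which raises these counts; the cause of the other shifts was not tested.

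Without the cluster Proliferating the share of High_Apoe cells was 9.66% and 16.5% in labelled Trpv4-null LPS and untreated and 10.2% and 16.6% in WT LPS and untreated, and with cells of at least 3000 UMIs it was 16.6% in WT untreated. As a mean over single cells, Apoe was at 3350 (labelled Trpv4-null LPS) and 2820 CPM (WT LPS), C1qb at 2371 (WT LPS) and 2563 CPM (WT untreated), and Lyz2 at 16057, 23829, 18892 and 26744 CPM (labelled Trpv4-null LPS and untreated, WT LPS and untreated). Of 138 values of shares, counts and marker levels under an alternative, 89 moved by less than their limit and 49 by more. For named genes against other cells, with LPS and between genotypes, the scalings, pseudocount and single-cell mean turned no direction of a 2-fold difference. The difference in LPS response was not followed gene by gene in these runs. With the cluster Macrophage as comparator, that difference turned in WT cells from -1.48 to 0.40 for Ube2c and from 1.60 to -0.46 for Iigp1. Leaving out cells with a shared barcode, chosen after seeing the data, moved none of the shares and counts beyond its limit. The limits are counting error for shares and levels and 1.5 times for counts. Genes under 20 CPM were not compared, and doublets were not removed.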

Other observations

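Csf3r, counted among the neutrophil markers, was highest in High_Apoe cells of all 4 libraries among the 8 clusters, while Ngp and Ltf were at 0 there. In the other cells, Apoe with LPS over untreated was lowest in Cd74+ cells (0.0926) of the labelled Trpv4-null libraries and in Il1b+_Cxcl2+ cells (0.0811) of the WT libraries. The median share of mitochondrial UMIs in High_Apoe cells was 3.27% and 3.40% with LPS, against 5.91% and 5.98% untreated, in labelled Trpv4-null and WT libraries.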
